A study of Mus musculus with 8 samples.

Results

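The genes described here form the lysophosphatidic acid (LPA) system of inguinal fat: the receptors Lpar1 to Lpar6, the LPA-producing enzyme autotaxin (Enpp2) and the lipid phosphate phosphatases Plpp1, Plpp2 and Plpp3. They were chosen by name, as the array probe sets whose platform annotation gives exactly 1 gene symbol and that symbol is one of these 10 names. This found 17 probe sets for 8 of the 10 genes, out of 45101 probe sets and 18193 genes in all. Enpp2 and Lpar5 had no such probe set and were not analysed here. Where a gene had several probe sets, the one with the highest mean over the 8 arrays stood for the gene.

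The samples were inguinal white adipose tissue, the subcutaneous fat of the groin, from male mice of 12 weeks with a C57BL/6 background. There were 4 KO mice, labelled Lpar4 -/Y because the gene lies on the X chromosome and males carry a single copy, and 4 wild-type (WT) littermates. Both groups received standard chow and no treatment is named. Each mouse had its own array, and values are log2 signals, so a difference of 1 is a doubling.

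LPA is a small phospholipid that acts outside the cell through G protein-coupled receptors. Autotaxin, which adipocytes secrete, makes it from lysophosphatidylcholine, and lipid phosphate phosphatases at the cell surface remove its phosphate and end the signal. Lpar1, Lpar2 and Lpar3 belong to the Edg receptor family, which also holds the sphingosine 1-phosphate receptors. Lpar4, Lpar5 and Lpar6 are closer in sequence to the P2Y nucleotide receptors. In fat LPA is known as a regulator of preadipocytes.

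Array medians lay between 6.73 and 6.74. The values of 78.7% of all probe sets had an SD under 0.01 over the 8 arrays, and such probe sets are called near constant here. The other probe sets are called varying, and they stood for 28.4% of the genes. The adipocyte markers measured (8 of the 10 listed) all lay at or above percentile 98.1 of the probe sets, so the labelled tissue carried its markers. Skeletal muscle markers split the arrays by replicate number, with list means of 8.97 to 9.63 in KO 1 and 2 and 8.99 to 9.26 in WT 1 and 2, but 6.56 to 7.37 in KO 3 and 4 and 6.60 to 7.21 in WT 3 and 4. Differences within numbers 1 and 2 and within numbers 3 and 4 are therefore given beside those over all arrays. The labels do not say what a replicate number shares.

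In the limma test of KO against WT over all probe sets, 1 of the 3 Lpar4 probe sets passed, and no other probe set of the LPA system did. With limma over all genes, 0 of the 8 measured genes had an adjusted p under 0.05, against 4.03% of all genes (2.39% higher and 1.64% lower in KO), and 1 of the 8 (Lpar4) had an unadjusted p under 0.05, against 22.9%. The 8 genes comprised 6 that varied and 2, Lpar2 and Lpar3, that were near constant. Over the 6 varying genes the median KO minus WT difference was -0.01, against 0.01 over all varying genes, and the median size of the difference was 0.06, against 0.18. Among varying genes only, 1 of the 6 (Lpar4) passed, against 27.1% of varying genes. It passed there with the replicate number as a block too, against 19.5% of varying genes, or 10.3% counting those higher in KO. In the limma test of all genes with that block, 0 of 18193 genes passed, with 3703 at an unadjusted p under 0.05.

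**Figure D1:**
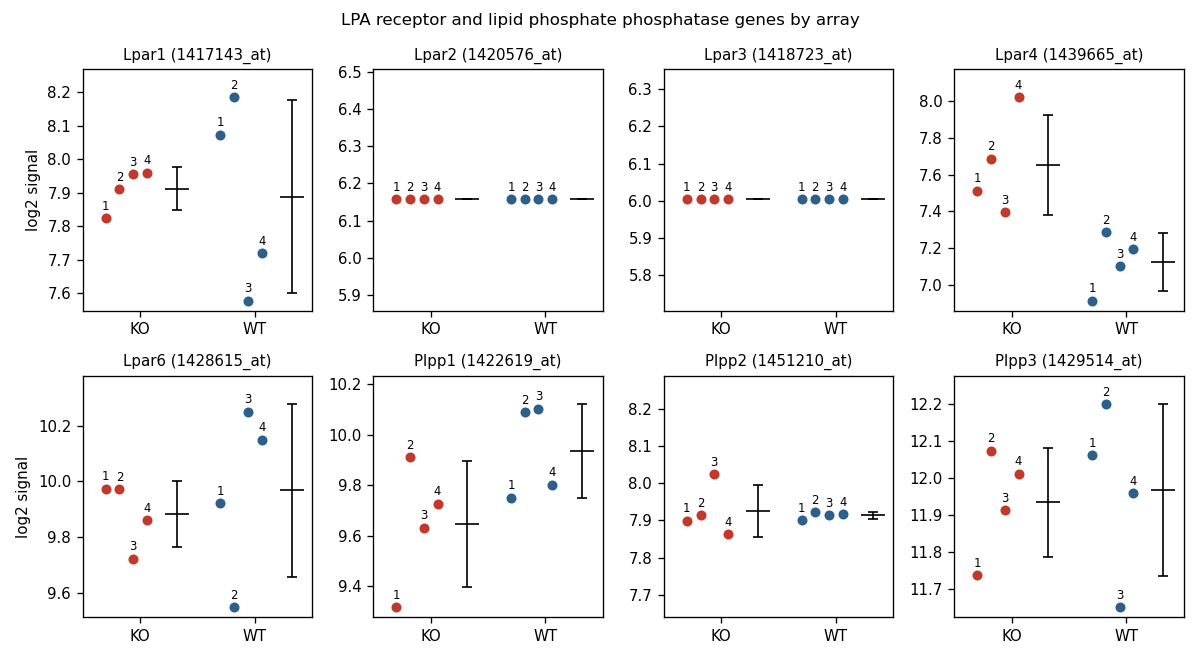
Log2 signal of the 8 measured genes in the 4 KO and 4 WT arrays, each panel showing the probe set that stands for the gene. Points are arrays with their replicate number, and bars give the mean and SD of 4 arrays. The Lpar4 groups do not overlap in this probe set, while Lpar2 and Lpar3 sit at 1 level in all 8 arrays.

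Lpar4 encodes the receptor that the KO mice lack, and its 3 probe sets disagreed in direction. The lower one in KO, 1452424_at, read 5.74, 5.91, 5.81 and 5.78 in KO 1 to 4, against 6.80, 6.98, 6.89 and 7.04 in WT 1 to 4. All 4 KO arrays lay below every WT array. The probe set fell by 1.12 in KO, with a limma SE of 0.06 and an adjusted p of 0.0104 over all probe sets. It was the only 1 of the 17 probe sets of the LPA system to pass, against 1.98% of all probe sets. Its mean ranked among the dimmest signals in KO, at percentile 3.37 of the table, against percentile 57.0 in WT. No background measure was used here, so the fold is approximate. With the replicate number as a block its adjusted p was 0.0761, and 0.0174 with the block among varying probe sets only. Without WT replicate 2 its adjusted p was 0.0512.

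The other Lpar4 probe sets read higher in KO. Probe set 1439665_at gave 7.51, 7.69, 7.40 and 8.02 in KO 1 to 4, against 6.91, 7.29, 7.10 and 7.20 in WT 1 to 4. Probe set 1434186_at gave 7.16, 7.55, 6.99 and 7.88 in KO 1 to 4, against 6.38, 6.81, 6.69 and 6.84 in WT 1 to 4. In both, the lowest KO array (KO 3) stood above the highest WT array, and KO 4 was the highest of all. The differences were 0.53 (limma SE 0.15) and 0.71 (SE 0.22), with adjusted p of 0.128 and 0.144 over all probe sets. Among varying probe sets only, of which 25.6% passed, they were 0.0311 and 0.0358, or 0.0370 and 0.0356 with the replicate block.

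The probe sets 1439665_at and 1434186_at followed each other closely, with a Pearson correlation of 0.99 over the 8 arrays and 0.98 for the deviations from the genotype means. The deviations of 1452424_at correlated at 0.39 with those of 1439665_at and at 0.47 with those of 1434186_at, as a description of 8 arrays. The 3 Lpar4 probe sets were also the 3 of the 11 varying probe sets of the LPA system whose groups did not overlap, against 32.5% of all varying probe sets. Each gave an exact two-sided permutation p of 0.0286, the smallest that 4 against 4 arrays allow without pairing. With the replicate numbers taken as pairs, an exact permutation p could not fall below 0.125. Within numbers 1 and 2 and within numbers 3 and 4 the differences were -1.07 and -1.17 for 1452424_at, 0.50 and 0.56 for 1439665_at, and 0.75 and 0.67 for 1434186_at. The sources used here do not give which of these probe sets match the sequence removed in KO, and one that lies outside it checks nothing about the genotype labels. The gene-level value of Lpar4 is that of its brightest probe set, 1439665_at, and so has the sign opposite to that of 1452424_at.

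**Figure D2:**
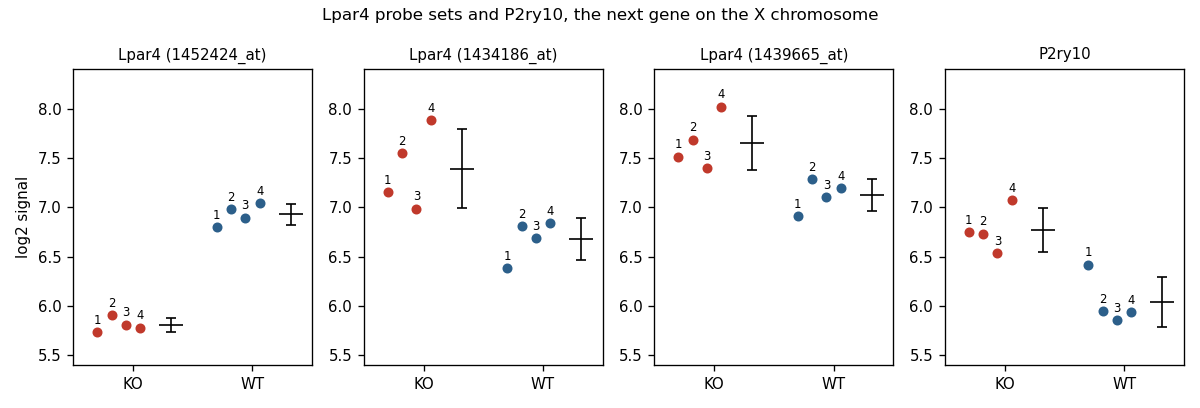
Log2 signal of the 3 Lpar4 probe sets and of P2ry10 in KO and WT arrays on 1 shared axis, with replicate numbers and with the mean and SD of 4 arrays. KO lies below WT for 1452424_at and above WT in the other panels, with no overlap in any of them.

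The 250 bases before the annotated start of Lpar4 are shown because this is the targeted gene, on the + strand of GRCm38.p6 at chrX:106920375-106920624, from RefSeq. Capitals mark matches on either strand to the TATA box (TATAAA), the CCAAT box (CCAAT), the GC box (GGGCGG) and the TEAD site (GGAATG).
Lpar4: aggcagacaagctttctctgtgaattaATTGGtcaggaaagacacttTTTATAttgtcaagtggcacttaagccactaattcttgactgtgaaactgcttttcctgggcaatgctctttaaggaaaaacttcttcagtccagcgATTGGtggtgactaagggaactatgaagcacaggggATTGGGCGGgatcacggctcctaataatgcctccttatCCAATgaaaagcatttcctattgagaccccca
The window held 4 CCAAT matches, 1 TATA match and 1 GC box match, and the GC box overlaps 1 of the CCAAT matches, read on the other strand. It had 43.6% G and C, against a median of 52.4% over the 32851 promoter windows in the table. Of those windows 33.8% held CCAAT, 12.4% TATAAA, 32.7% GGGCGG and 12.6% GGAATG on either strand. A match describes the letters and is no evidence of binding.

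P2ry10, a lysophospholipid receptor of lymphocytes and the next gene after Lpar4 on the X chromosome, read higher in KO. Its single probe set gave 6.75, 6.74, 6.53 and 7.07 in KO 1 to 4, against 6.42, 5.95, 5.86 and 5.94 in WT 1 to 4. The lowest KO array exceeded the highest WT array, and that array, WT 1, stood apart from the other WT arrays. The difference was 0.73 (limma SE 0.16), with an adjusted p of 0.0648 over all genes, which misses the threshold, and of 0.0151 among varying genes, or 0.0325 there with the replicate block. The exact permutation p, again without pairing by number, was 0.0286. The groups of 33.2% of varying genes did not overlap either (18.2% with KO higher). The difference was 0.56 within numbers 1 and 2 and 0.91 within numbers 3 and 4. In WT it ranked at percentile 11.3 of the table, so this size is approximate too.

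Of the T cell markers 5 of 7 were measured and 0 passed. Cd3e, Cd4 and Cd8a were near constant, and Cd3d and Cd3g, subunits of the T cell receptor complex, varied (differences of 0.43 and 0.72, limma adjusted p = 0.240 and 0.267). Cd3g gave 6.74, 6.51, 6.47 and 7.16 in KO 1 to 4, against 6.91, 5.80, 5.69 and 5.6 in WT 1 to 4. KO 4 was the highest array and WT 1 the highest WT array for Cd3g, as for P2ry10. The summed signal of the list ran from 623 to 707 in KO and from 546 to 669 in WT. The part of these cells in the P2ry10 difference was not tested. In whole tissue, fewer cells of a type and less RNA per cell cannot be told apart, which holds for every value here.

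Of the 10 genes within 5 places of Lpar4 on the X chromosome, 4 were measured and all 4 code for proteins. Besides P2ry10 they were Rtl3, a gene derived from a retrotransposon, and the receptors P2ry10b and Gpr174. All 3 were near constant, at 6.55, 6.11 and 6.08 in both genotypes. Near-constant values were the rule in this table, so they do not show that these genes were unaffected.

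Among the Edg-type receptors only Lpar1, the most widely expressed LPA receptor and one known in fibroblasts and preadipocytes, varied. Lpar1 gave 7.82, 7.91, 7.95 and 7.96 in KO 1 to 4, against 8.07, 8.18, 7.58 and 7.72 in WT 1 to 4. The KO arrays lay close together inside the WT range, and the WT arrays split into 2 high (WT 1 and 2) and 2 low (WT 3 and 4). The difference was 0.02 with a limma SE of 0.14, an adjusted p of 0.944 and a 95% interval of -0.32 to 0.37. It was -0.26 within numbers 1 and 2 and 0.31 within numbers 3 and 4. A further probe set, 1448606_at, gave -0.08 over all arrays, and -0.32 and 0.16 within these numbers, and it correlated with the brightest at 0.87 over the 8 arrays. The third, 1426110_a_at, was near constant at 6.69.

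Fibroblast and progenitor markers, of which 7 of 8 were measured and 0 passed, had list means of 9.64, 9.86, 9.82 and 9.90 in KO 1 to 4, against 9.75, 10.002, 9.18 and 9.72 in WT 1 to 4. WT 2 was the highest and WT 3 the lowest array of both this list and Lpar1. Its summed signal ran from 12832 to 16359 in KO and from 13133 to 17520 in WT. The macrophage list (8 of 8 measured, 0 passing) had means of 9.87 to 10.06 in KO, against 8.90 in WT 3 and 9.41 to 10.27 in the other WT arrays. The part of these cells in the Lpar1 values was not tested.

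Lpar2, a receptor known in immune and epithelial cells, and Lpar3, known for its role in embryo implantation, were near constant. Lpar2 stood at 6.16 in every array by probe set 1420576_at and at 6.10 by 1442291_at. Lpar3 had a mean of 6.00 in both genotypes. Over the 6 near-constant probe sets of the LPA system the range across arrays was at most 0.00084 and the limma adjusted p ran from 0.381 to 0.930. Their WT means stood between percentiles 9.75 and 48.0 of all probe sets.

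Lpar6, a P2Y-type receptor known for its role in hair growth and in endothelium, was represented by a single probe set. Lpar6 gave 9.97, 9.97, 9.72 and 9.86 in KO 1 to 4, against 9.92, 9.55, 10.25 and 10.15 in WT 1 to 4. The WT arrays again bracketed the KO arrays, here with WT 3 and 4 high and WT 2 low. The difference was -0.09 (limma SE 0.16, adjusted p = 0.807, 95% interval -0.48 to 0.31). It was 0.24 within numbers 1 and 2 and -0.41 within numbers 3 and 4, the reverse of Lpar1. Rb1, the retinoblastoma gene whose span holds Lpar6, differed by 0.17 (SE 0.05, adjusted p = 0.107), and its groups overlapped.

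The lipid phosphate phosphatases, membrane enzymes that break down extracellular LPA, did not pass either. Plpp1 gave 9.32, 9.91, 9.63 and 9.73 in KO 1 to 4, against 9.75, 10.09, 10.10 and 9.80 in WT 1 to 4. Each KO array was below the WT array of its number, but KO 2 exceeded WT 1 and WT 4. The difference was -0.29 (limma SE 0.15, adjusted p = 0.316, 95% interval -0.65 to 0.07), or -0.31 within numbers 1 and 2 and -0.27 within numbers 3 and 4. Among varying genes only, its adjusted p was 0.144, or 0.0692 with the replicate block. Probe set 1422620_s_at, whose suffix marks probes shared between transcripts, gave -0.30 and correlated with the brightest at 0.99, while 1425449_at was near constant at 6.09.

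Of 3 marker lists with lower means in KO, blood endothelium (8 of 8 measured) had list means of 8.89, 9.10, 8.88 and 8.98 in KO 1 to 4, against 9.06, 9.20, 9.31 and 9.24 in WT 1 to 4. KO 2 was the highest KO array and WT 1 the lowest WT array in both. Among these markers 1 (Esam, an endothelial adhesion protein) passed, with a difference of -0.33, against 1.64% of all genes passing in that direction, and its adjusted p was 0.155 with the replicate block. The summed signal ran from 4433 to 5177 in KO and from 5089 to 6052 in WT. Schwann cell markers (4 of 7 measured, 0 passing) had list means of 8.06, 8.56, 8.20 and 8.30 in KO 1 to 4, against 8.62, 9.18, 9.09 and 8.69 in WT 1 to 4, with KO 1 lowest and WT 2 and 3 highest, as for Plpp1. Their summed signal ran from 1775 to 2820 in KO and from 3011 to 5202 in WT. Smooth muscle and pericyte markers (8 of 8 measured) averaged 8.97 in KO and 9.24 in WT, with summed signals of 5750 to 6560 in KO and 8976 to 10145 in WT. Of these 1 passed, the smooth muscle actin Acta2, against 1.64% of all genes passing in that direction. Its difference was -1.26 (limma adjusted p = 0.0134, or 0.0975 with the block). Acta2 was the brightest marker of this list, at 10.975 in KO and 12.24 in WT, so it weighs most in the summed signal. It was read by a probe set of shared probes, so related transcripts can contribute. Tagln (-0.48), Myh11 (-0.36) and Pdgfrb (-0.20) were lower in KO too, without passing over all genes. Rgs5 (0.12), Notch3 (0.04) and Cspg4 (0.01) were higher in KO, and Cnn1 was near constant. Among varying genes only, more markers passed as lower in KO, against 12.2% of varying genes. They were 4 of 7 for blood endothelium, 2 of 3 for Schwann cells and 2 of 7 for smooth muscle and pericytes (Acta2 and Tagln). The part of any of these cells in the Plpp1 values was not tested.

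Plpp3, the phosphatase best known in endothelium and vascular development, gave 11.74, 12.07, 11.91 and 12.01 in KO 1 to 4, against 12.06, 12.20, 11.65 and 11.96 in WT 1 to 4. The groups overlapped widely, with WT 3 the lowest and WT 2 the highest array. The difference was -0.03 (limma SE 0.13, adjusted p = 0.913, 95% interval -0.36 to 0.29), at -0.22 within numbers 1 and 2 and 0.16 within numbers 3 and 4. The other probe set, 1448908_at, gave -0.10 and correlated with the brightest at 0.99.

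Plpp2, the phosphatase linked to the cell cycle, gave 7.90, 7.91, 8.02 and 7.86 in KO 1 to 4, against 7.90, 7.92, 7.91 and 7.92 in WT 1 to 4. WT arrays spanned very little, while KO 3 was the highest and KO 4 the lowest of all. The difference was 0.01 (limma SE 0.03, adjusted p = 0.877, 95% interval -0.07 to 0.09). The other probe set, 1420910_at, was near constant at 6.41.

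**Figure D3:**
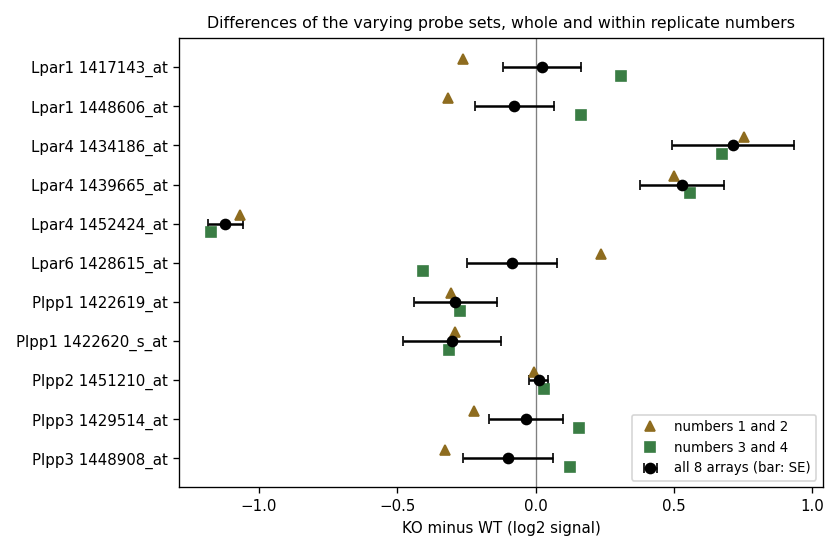
KO minus WT difference of log2 signal for the 11 varying probe sets, over all 8 arrays with the limma SE (circles) and within replicate numbers 1 and 2 (triangles) and 3 and 4 (squares). Lpar4 and Plpp1 keep 1 sign in both sets of numbers, whereas Lpar1, Lpar6, Plpp2 and Plpp3 take opposite signs.

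Lpar1, Lpar6 and Plpp3 thus had genotype differences of opposite sign in the replicate numbers. Plpp2 did so too, at -0.01 and 0.03. Of the 6 varying genes 4 did so, against 22.3% of all varying genes, and 3 had differences over 0.1 in both sets of numbers, against 7.98%. Those 3 were Lpar1, Lpar6 and Plpp3, which are not independent cases. Pearson's r over the 8 arrays was -0.90 for Lpar1 and Lpar6, 0.83 for Lpar1 and Plpp3 and -0.67 for Lpar6 and Plpp3. The interaction was not tested, and each set of numbers holds 2 arrays per genotype.

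Across the 8 arrays Lpar1 and Lpar6 ran against each other and Lpar1 and Plpp3 ran together. Pearson's r was -0.90 for Lpar1 and Lpar6 (exact permutation p = 0.00355, adjusted p = 0.0532 over the 15 pairs of the 6 varying genes), and Spearman's rank correlation was -0.90 (exact permutation p = 0.00456, adjusted p = 0.0685). Without WT 2 and WT 3, the arrays farthest from the median of Lpar1, r was -0.69. Pearson's r was 0.83 for Lpar1 and Plpp3 (exact permutation p = 0.0111, adjusted p = 0.0833), Spearman's rank correlation was 0.76 (exact permutation p = 0.0368, adjusted p = 0.276), and r was 0.48 without the same arrays. No pair of the 15 passed after adjustment. These permutations treat the 8 arrays as exchangeable, which their split by replicate number makes doubtful, so the p-values are approximate. Within genotype r was -0.72 in KO and -0.94 in WT for Lpar1 and Lpar6, and 0.71 in KO and 0.93 in WT for Lpar1 and Plpp3, from 4 arrays each.

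**Figure D4:**
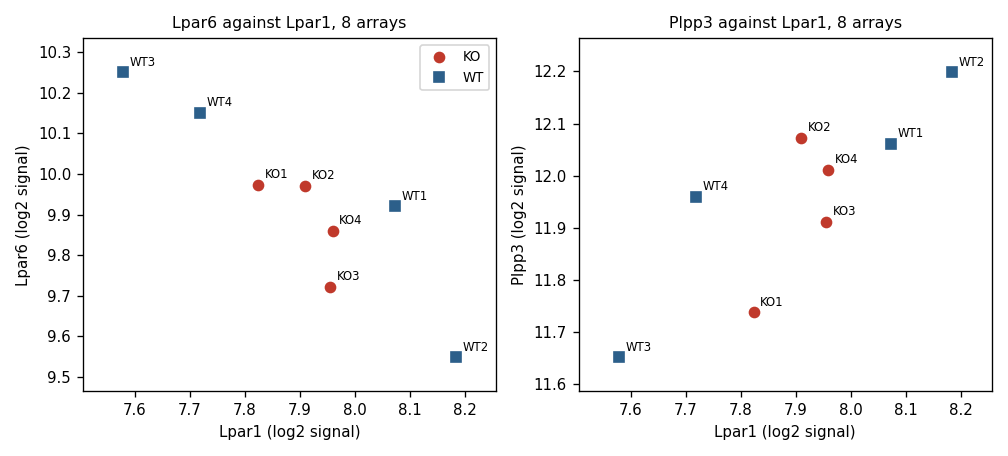
Log2 signal of Lpar6 (left) and Plpp3 (right) against that of Lpar1, 1 point per array, KO as circles and WT as squares. WT 2 and WT 3 lie at the ends of both relations and the KO arrays lie between them.

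The 250 bases before the starts of these 3 genes are shown side by side because their signals moved together or apart across the arrays. They come from RefSeq on GRCm38.p6, for Lpar1 its outermost start, on the - strand at chr4:58553492-58553741, for Lpar6 the + strand at chr14:73237641-73237890, and for Plpp3 the + strand at chr4:105157097-105157346. Each is written on the gene's own strand, and capitals mark the same 4 motifs.
Lpar1: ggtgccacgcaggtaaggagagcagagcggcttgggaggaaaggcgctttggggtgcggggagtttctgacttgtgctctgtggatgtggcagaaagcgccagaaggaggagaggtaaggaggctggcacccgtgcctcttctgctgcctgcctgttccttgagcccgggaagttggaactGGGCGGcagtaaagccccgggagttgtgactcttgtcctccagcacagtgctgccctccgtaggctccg
Lpar6: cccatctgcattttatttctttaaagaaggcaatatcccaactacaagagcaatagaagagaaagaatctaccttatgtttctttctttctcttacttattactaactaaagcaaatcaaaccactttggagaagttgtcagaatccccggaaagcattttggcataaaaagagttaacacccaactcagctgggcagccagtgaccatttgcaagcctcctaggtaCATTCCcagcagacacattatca
Plpp3: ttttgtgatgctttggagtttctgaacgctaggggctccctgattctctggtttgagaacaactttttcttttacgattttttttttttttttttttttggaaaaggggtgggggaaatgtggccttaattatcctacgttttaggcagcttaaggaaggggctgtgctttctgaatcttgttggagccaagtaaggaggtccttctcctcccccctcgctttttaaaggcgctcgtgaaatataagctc
The Lpar1 window held 1 GC box match, had 62.0% G and C and 11 CG dinucleotides, against a median of 6 over all windows. The Lpar6 window held 1 TEAD site match on the other strand, had 39.2% G and C and 1 CG dinucleotide. The Plpp3 window held none of the 4 motifs, had 42.4% G and C and 6 CG dinucleotides. No motif of the 4 was common to the 3 windows, which says only that these letters do not recur in these stretches.

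The genes most like each varying gene over the 8 arrays were found among 5172 other varying genes, and such correlations are descriptions picked as the highest of many. For Lpar1 they were Ptgis, the prostacyclin synthase (r = 0.97), Reps2 (0.96) and Scamp2 (0.96). For Lpar6 they were the G protein regulator Rgs4 (0.95), the homeobox gene Hhex (0.95) and Nap1l4 (0.93). For Lpar4 they were Uqcc2, an assembly factor of respiratory complex III (0.92), Sdf2 (0.92) and the vesicle fusion protein Ykt6 (0.90). Their correlation with Lpar4 was lower in the deviations from the genotype means, at 0.76, 0.77 and 0.72. For Plpp1 they were Septin11 (0.98), the inositol trisphosphate kinase Itpkb (0.98) and Tceal9 (0.97), and for Plpp3 the ubiquitin ligase Wwp1 (0.96), Cnrip1 (0.94) and the mannosidase Man1c1 (0.94).

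For Plpp2 the most similar genes were Dapl1 (r = 0.93) and the hair keratins Krt27 (0.93) and Krt35 (0.92). Krt27 gave 5.80, 5.94, 8.95 and 5.82 in KO 1 to 4, against 5.78, 5.86, 5.77 and 6.10 in WT 1 to 4. KO 3 alone was high for Krt27, as it was for Krt35 (7.26, against 6.05 to 6.22 in the other arrays) and Dapl1 (7.35, against 6.29 to 6.55). The highest Plpp2 value thus came from the array with hair keratin signal, and the part of that signal in the Plpp2 value was not tested. Without KO replicate 3 the Plpp2 difference was -0.02.

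**Figure D5:**
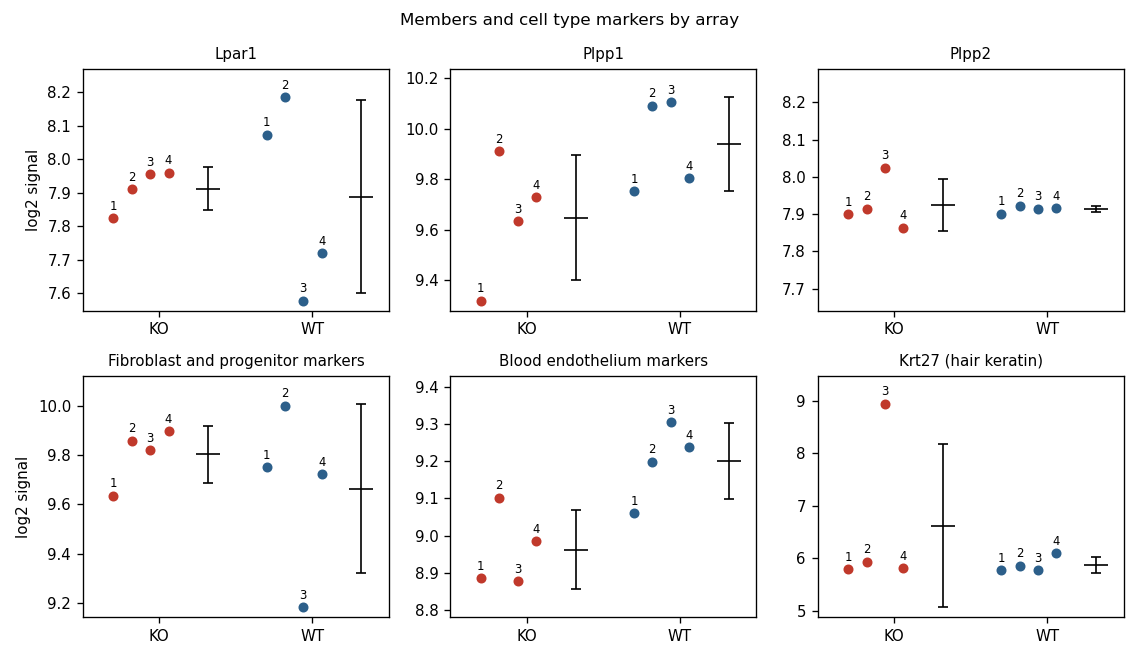
Log2 signal by array for Lpar1, Plpp1 and Plpp2 (top), and for the mean of fibroblast and progenitor markers, the mean of blood endothelium markers and Krt27 (bottom), KO left of WT, with replicate numbers and the mean and SD of 4 arrays. WT 3 is low in both left panels, and KO 3 is high in both right panels.

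The wider pathway was described by 9 lists with 97 genes, of which 89 were measured and 27 varied. With limma over all genes 0 of the 89 passed, against 4.03% of all genes, and 21 had an unadjusted p under 0.05, or 23.6%, against 22.9% of all genes. Among varying genes only, 2 of the 27 were higher and 2 lower in KO, against 14.9% and 12.2%, and these 4 are named with their values known. P2ry10 is described above. Lypla1, a thioesterase also known to hydrolyse lysophospholipids, gave 9.82, 9.66, 9.74 and 9.72 in KO 1 to 4, against 9.52, 9.6, 9.56 and 9.58 in WT 1 to 4 (0.17, limma adjusted p = 0.0361 among varying genes and 0.0880 with the block). Grk5, a kinase that desensitises G protein-coupled receptors, gave 8.08, 8.45, 8.07 and 8.33 in KO 1 to 4, against 8.69, 8.86, 8.59 and 8.84 in WT 1 to 4. Its groups did not overlap, and nor did those of Lypla1, Rhoc and 33.2% of all varying genes. The Grk5 difference was -0.51 (limma adjusted p = 0.0148 among varying genes and 0.0201 with the block). With the mean of all its probe sets the difference was -0.26 for Grk5, and that for Lypla1 was 0.097. With the probe set of largest SD Grk5 stayed at -0.51, and Lypla1 was 0.12 (limma adjusted p = 0.381 over all genes). The small GTPase Rhoc gave 9.0, 9.02, 8.98 and 8.99 in KO 1 to 4, against 9.12, 9.51, 9.27 and 9.19 in WT 1 to 4 (-0.27, limma adjusted p = 0.0424 among varying genes and 0.0600 with the block). Rhoc was read by a probe set of shared probes, so related transcripts can contribute. The Rhoc difference was -0.24 with the mean of its probe sets and -0.22 with the one of largest SD. Its limma adjusted p over all genes was 0.188 and 0.419 in these settings.

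By role, no list held more than 1 gene that passed among varying genes. Of 16 measured genes listed for LPA production 5 varied, from -0.17 (Gde1) to 0.09 (Gdpd1). Of 12 further genes of the phosphatase family or linked to LPA breakdown 2 varied (0.14 and 0.17). Of 14 further lysophospholipid receptors and related receptors 5 varied, with a median difference of 0.19. Besides P2ry10 these were Gpr65 (0.46), Gpr34 (0.19) and the sphingosine 1-phosphate receptors S1pr1 (-0.21) and S1pr3 (-0.22), none of which passed. All 4 measured ENPP enzymes other than autotaxin were near constant. The median difference of the 27 varying pathway genes was 0.01, the same to 2 decimals as over all varying genes. Of 12 G protein alpha subunits 3 varied, from -0.05 to 0.08.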

How the data were processed

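Tissue RNA from 8 mice (4 KO, 4 WT) was measured on 1 array each. Per the labels' protocols, biotin-labelled RNA amplified from 100 ng of total RNA was put on a 3' array. The deposited log2 values cover 45101 probe sets, and the submitters' processing notes name R 2.14.0. The log2 scale was read from the values, which run from 4.93 to 14.3. How the authors corrected the background, normalised and summarised is not given in the sources used here, nor why most values are near constant. The number of arrays limits the precision.

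Probe sets were named through the platform annotation: 34945 had 1 gene, 932 several and 9160 none, and 64 were control probe sets. Each of 18193 genes took its brightest probe set, and 5173 of them varied (SD of at least 0.01). KO and WT were compared in R 4.3.3 by a two-sided limma 3.58.1 test (lmFit, then eBayes), adjusted by Benjamini-Hochberg over all genes or probe sets, with a threshold of 0.05. Pathway and marker lists, tests and members were chosen with earlier results of these data known. The genes named are all members, pathway genes that pass, the 3 genes most correlated with each varying member, genes near Lpar4 and Rb1; others were named after their values were seen. The same test was also run on simulated arrays in which 50 varying genes were shifted by each size. Of the genes shifted by 0.3, 22% passed over all genes and 34% among varying genes only. For shifts of 0.6 the shares were 60% and 72%. Unchanged genes passed too, 7 over all genes and 13 among varying genes only. In the real data 22.9% of all genes had an unadjusted p under 0.05, so these shares need not hold there. They show only that shifts of these sizes can be missed.

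Deviations of same-numbered KO and WT arrays from the genotype means correlated at 0.315, 0.486, 0.189 and 0.244, all over the 0.1 set for treating the numbers as pairs. Different numbers also reached this level: 0.364 for KO 3 with WT 4, 0.266 for KO 4 with WT 3, 0.22 for KO 2 with WT 1 and 0.107 for KO 1 with WT 2. KO 3 and KO 4 thus correlated better with the other number than with their own, and every pairing of numbers 1 or 2 with 3 or 4 was below 0. The pairing rests on these data alone.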

Additional observations from a re-analysis of the deposited data

Results flagged for a closer look

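The 36 varying probe sets given by array or named for their likeness make 72 groups of 4 arrays, and 10 of these held an array far from the other 3, where chance gives about 1 in 20. Genes named for likeness to the same gene are correlated by choice, so these are not independent.

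WT 1 was high for P2ry10, at 6.42, against 5.86 to 5.95 in the other WT arrays, for Cd3d, at 7.08, against 6.33 to 6.44, and for Cd3g, at 6.91, against 5.6 to 5.80. KO 4 was high for Cd3d, at 7.24, against 6.89 to 6.93 in the other KO arrays. The part of T cells in these values was not tested.

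KO 3 was high for Krt27, at 8.95, against 5.80 to 5.94 in the other KO arrays, for Krt35, at 7.26, against 6.08 to 6.22, and for Dapl1, at 7.35, against 6.29 to 6.42. WT 2 was high for Dapl1, at 6.55, against 6.37 to 6.39 in the other WT arrays. KO 1 was low for Cnrip1, at 7.70, against 7.85 to 7.88 in the other KO arrays, and for Man1c1, at 8.03, against 8.36 to 8.4.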

How the results depend on the processing

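The count of genes that pass was 733, and it was 1402 among varying genes, 1417 there blocking on numbers 1 to 2 or 3 to 4 (chosen after seeing the data), 0 with the replicate block (3703 at an unadjusted p under 0.05), 9 with a per-gene Welch test, and 10 (without KO replicate 3) to 253 when 1 array was left out. Of the LPA system genes 0 passed, and 1 passed (Lpar4) among varying genes, with the replicate block among varying genes, with the other block among varying genes, and with the probe set of largest SD. Lpar4 probe set 1452424_at kept its direction in every setting that retained it (a filter on dim probe sets removed it), at -1.12 with the replicate block (adjusted p = 0.0761) and -1.16 to -1.08 with 1 array left out (adjusted p = 0.0219 to 0.0512). In the 3 settings restricted to varying probe sets, 1434186_at (0.71) and 1439665_at (0.53) passed, and with 1 array left out they ran from 0.55 to 0.85 and from 0.41 to 0.62 without passing. The gene-level Lpar4 value was -1.12 with the probe set of largest SD, since that setting picks 1452424_at, and 0.04 with the mean of its probe sets. Other signs turned for values that passed nowhere. Lpar1 was -0.0176 with the mean of its probe sets and -0.0765 with the one of largest SD, and ran from -0.0798 to 0.122 with 1 array left out. Median centring gave 0.0028 for both Lpar2 and Lpar3. With 1 array left out Lpar2 ran from -0.00025 to 2.3e-05, Lpar6 from -0.22 to 0.00893, Plpp2 from -0.0211 to 0.0326 and Plpp3 from -0.14 to 0.0427. Plpp1 stayed below 0 in all its settings, from -0.38 to -0.18. With the mean of their probe sets Grk5 was -0.26, Lypla1 0.097 and Rhoc -0.24 (limma adjusted p = 0.0584, 0.0431 and 0.188 over all genes). When only genes with a mean above the median were tested, 868 of 9096 passed. Grk5 and Lypla1 were among them (limma adjusted p = 0.0414 and 0.0404), and Rhoc was not (0.0931). The causes were not tested.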
